A study of Mus musculus with 6 samples.

Results

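The 52 genes described here sense DNA damage or repair it, and they were taken by name from the 54167 genes of the deposited expression table. They cover checkpoint signalling, nucleotide excision repair, translesion synthesis with nucleotide supply, direct reversal of alkylation, base excision with single-strand break repair, mismatch repair, homologous recombination with the Fanconi anemia pathway, the MRN complex and end joining. All 52 names had a row. Expression was measured by RNA-seq in 6 colorectal tumors, 3 from *Trp53fl/fl* mice and 3 from *VP* mice, with the strain labelled C57BL/6J for all 6. In both genotypes the *Trp53* alleles are flanked by loxP sites. *VP* mice also carry Cre under the villin promoter, which is active in intestinal epithelium, so that *Trp53* is lost in epithelial cells while the other cells of a tumor keep it. According to the methods, mice of both genotypes were male and 8 weeks old when they received 10 mg/kg azoxymethane (AOM), a carcinogen that alkylates DNA, and were then given 2.5% dextran sulfate sodium (DSS) in cycles of 7 days to inflame the colon. Tumors were collected on day 98.

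The p53 protein is activated by the kinases ATM, ATR, CHK1 and CHK2 when DNA is damaged, and it induces genes for cell cycle arrest, apoptosis and repair. Among repair genes, *Ddb2*, *Xpc*, *Rrm2b*, *Polk* and *Polh* have been described as p53 targets in human or mouse cells. AOM is turned into a methylating agent in the body, and methylated bases are reversed by MGMT and the ALKBH enzymes or cut out by the glycosylase MPG. Many genes of homologous recombination, mismatch repair and the Fanconi anemia pathway are also expressed mainly in dividing cells. The comparison asks how the transcripts of these pathways differed between tumors whose epithelium had or lacked p53.

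Values are TPM, transcript abundances that are scaled for transcript length and for the total of each tumor. Columns summed to between 999964 and 1000067, and 14857 to 15234 genes reached 1 TPM per tumor, but read numbers cannot be recovered from TPM and the depth of each library is unknown. Fold changes are log2 differences of TPM + 1, *VP* minus *Trp53fl/fl*, with the standard error (SE) of the limma fit. The scale understates the change of weakly expressed genes. Of the 15117 genes that reached 1 TPM in 3 or more tumors, 25 (0.165%) had a limma adjusted p under 0.05, with 12 (0.0794%) higher and 13 (0.0860%) lower in *VP* tumors. *Trp53* itself was at 124.94, 99.30 and 147.45 TPM in *Trp53fl/fl* tumors and at 38.45, 32.79 and 27.83 TPM in *VP* tumors (log2 fold change -1.87, SE 0.18, limma adjusted p = 0.0207). Its lower values in every *VP* tumor fit the labels. All 12 epithelial marker genes were detected in every tumor, with a summed level of 10438 to 10968 TPM in *Trp53fl/fl* tumors and 11794 to 12786 TPM in *VP* tumors. In bulk tissue, fewer cells of a type and less RNA per cell cannot be told apart.

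No repair gene passed the limma adjustment over all genes, and the smallest adjusted p among the 51 tested was 0.302. At an unadjusted p under 0.05, 7 repair genes (13.7%) were lower in *VP* tumors, against 8.0% of all genes tested, and 1 (1.96%) was higher, against 4.51%. The lower genes were *Msh3*, *Parp1*, *Polk*, *Blm*, *Lig4*, *Fancc* and *Mre11a*, which belong to 6 of the 9 role groups, and the higher gene was *Alkbh2*. Every *VP* tumor lay below every *Trp53fl/fl* tumor for 11 repair genes (21.6%), against 13.3% of all genes, and above for 1 (1.96%), against 6.03%. The log2 fold change was negative for 42 of the 51 genes (82.4%), against 60.8% of all genes, with a median of -0.13 against -0.07. Differences were small, since the median absolute log2 fold change was 0.16 and the median SE 0.17, compared with 0.18 and 0.18 over all genes. The count of 7 lower genes changed with the tumor left out, as did the share over all genes. It was 2 (3.9%, against 5.8% of all genes) without *Trp53fl/fl* replicate 2. It was 3 (5.9%) without *Trp53fl/fl* replicate 1 (all genes 4.4%) or *VP* replicate 3 (all genes 7.2%). It was 4 (7.8%) without *VP* replicate 1 (all genes 6.3%) or *VP* replicate 2 (all genes 5.0%). Without *Trp53fl/fl* replicate 3 it was 8 (15.7%, against 10.9% of all genes).

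**Figure D1:**
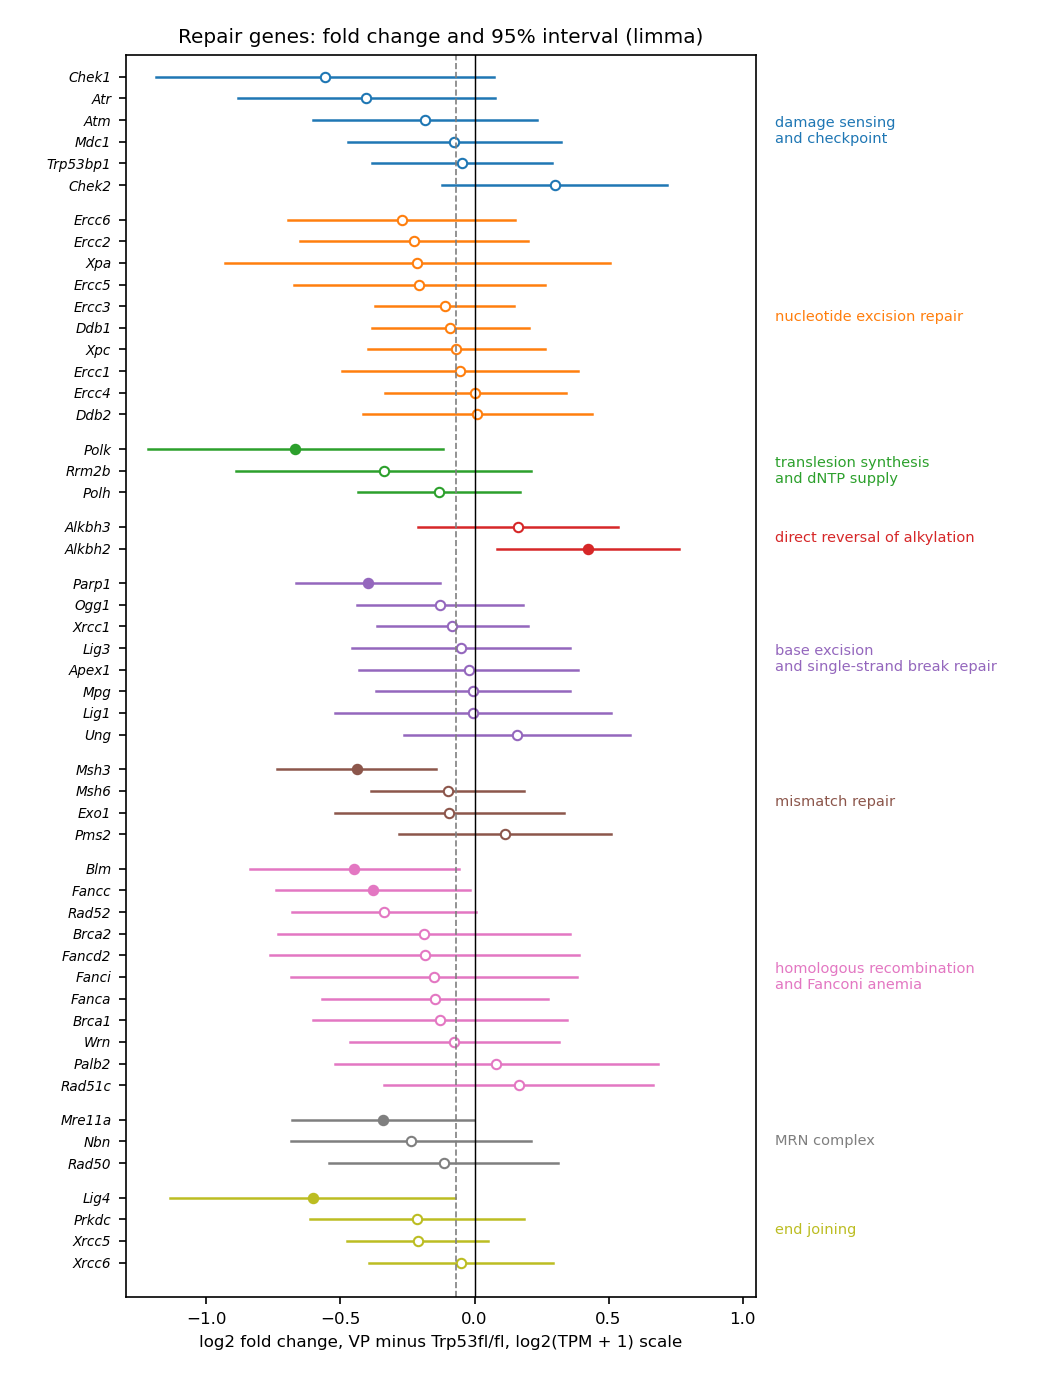
Log2 fold change (*VP* minus *Trp53fl/fl*, log2(TPM + 1) scale, horizontal axis) of the 51 repair genes tested, grouped and coloured by role, with 95% intervals from limma. Filled points mark an unadjusted p under 0.05, the dashed line is the median of all genes tested (-0.07), and most points lie to the left of 0.

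The plot of fold changes by role shows that intervals of most genes cross 0 and that the lower genes are spread over the roles rather than held by 1 group. Their levels differed widely. *Ddb1*, a subunit of the damage-binding complex and of a ubiquitin ligase with many other substrates, was the most abundant with a mean of 192.9 TPM, followed by *Apex1*, the endonuclease that cuts abasic sites, at 100.3 TPM, and by *Parp1* at 51.1 TPM. The 6 values of *Ddb1* did not overlap those of *Apex1*, nor those of *Apex1* the values of *Parp1*. *Lig1*, the ligase of replication and excision repair, followed at 34.9 TPM, and its values of 26.14 to 44.39 TPM overlapped those of *Parp1*. At the low end stood *Prkdc* at 3.24 TPM, *Rad51c* at 1.81 TPM and *Mgmt* at 0.748 TPM, again without overlap between them.

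**Figure D2:**
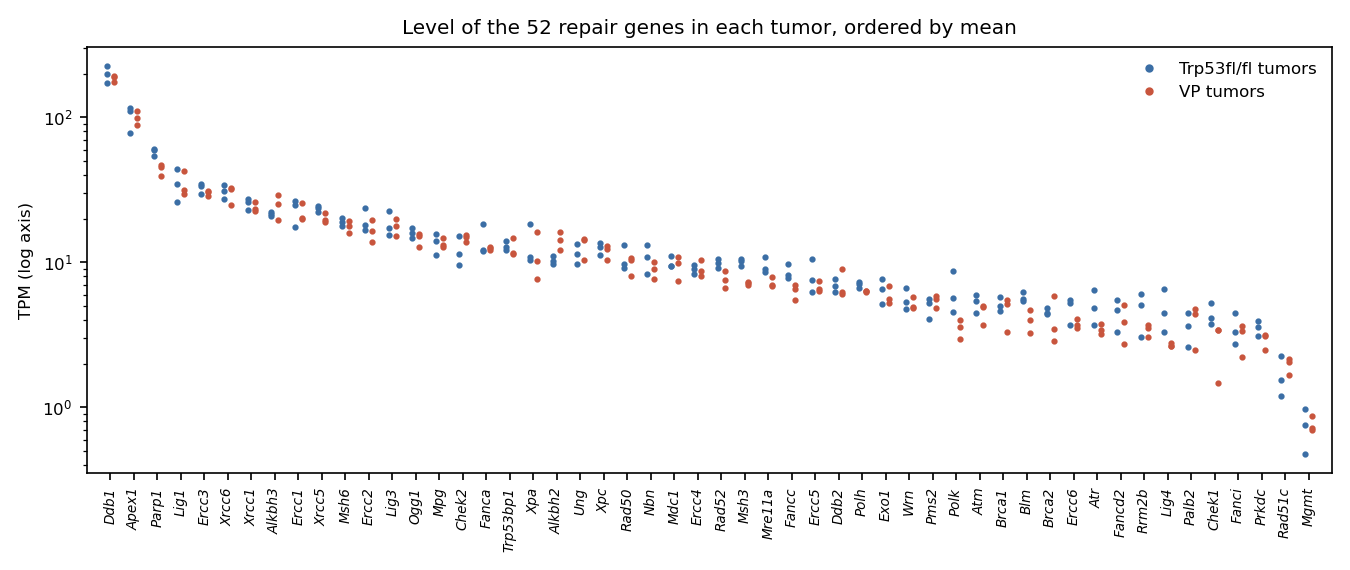
TPM (log axis) of the 52 repair genes in each tumor, ordered by their mean over all 6 tumors. Points of both genotypes lie close together for most genes, and the levels run from *Ddb1* (mean 192.9 TPM) down to *Mgmt* (0.748 TPM).

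Among the genes of damage sensing and the checkpoint, 5 of 6 had a negative log2 fold change (median -0.13), against 60.8% of all genes. None reached an unadjusted p under 0.05, against 12.5% of all genes in either direction. *Chek1*, which encodes the kinase that ATR activates at stalled replication forks, was at 3.77, 5.23 and 4.14 TPM in *Trp53fl/fl* tumors and at 3.39, 3.42 and 1.47 TPM in *VP* tumors. The genotypes did not overlap, but the closest tumors differed by little and *VP* replicate 3 lay far below the other tumors. Its log2 fold change was -0.56 (SE 0.27, limma adjusted p = 0.435), and -0.28 without *VP* replicate 3. *Atr* was at 4.87, 6.45 and 3.69 TPM against 3.41, 3.74 and 3.23 TPM (log2 fold change -0.40, SE 0.20, limma adjusted p = 0.448). Only *VP* replicate 2 reached into the range of the *Trp53fl/fl* tumors. *Atm*, the kinase that responds to double-strand breaks, had a log2 fold change of -0.18, and *Trp53bp1* and *Mdc1*, whose proteins gather at breaks, had values of -0.05 and -0.08. *Chek2*, the most abundant of the group and the target of ATM, was the exception in sign, at 9.56, 11.36 and 15.25 TPM against 13.83, 15.57 and 15.07 TPM (log2 fold change 0.30, limma adjusted p = 0.510), and its groups overlapped through *Trp53fl/fl* replicate 3.

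The 10 genes of nucleotide excision repair, which removes bulky lesions such as those of ultraviolet light, had a median log2 fold change of -0.10. Of these, 8 were negative and 2 positive, against 60.8% negative over all genes. None was without overlap, against 13.3% of all genes lower and 6.03% higher without overlap. The p53 target *Ddb2*, which encodes the small subunit of the damage-binding complex, was at 6.26, 7.69 and 6.91 TPM in *Trp53fl/fl* tumors and at 8.99, 6.09 and 6.21 TPM in *VP* tumors. *VP* replicate 1 was the highest of the 6 tumors and *VP* replicate 2 the lowest. The log2 fold change was 0.01 (SE 0.18, 95% interval -0.42 to 0.44, limma adjusted p = 0.987), and its sign changed with the tumor left out (-0.15 to 0.10). *Xpc*, another p53 target, whose protein recognises distorted DNA, was at 11.22, 12.76 and 13.57 TPM against 12.28, 10.45 and 13.01 TPM. Its groups overlapped over most of their range, and the log2 fold change of -0.07 (SE 0.14, 95% interval -0.40 to 0.26, limma adjusted p = 0.854) became 0.01 with median-of-ratios rescaling. *Ercc6*, which acts when RNA polymerase stalls at a lesion, had the lowest level of the group at 4.29 TPM and the most negative log2 fold change, -0.27, and *Xpa*, which verifies the damage, had the largest SE, 0.30, with values from 7.67 to 18.33 TPM.

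All 3 genes for translesion synthesis and nucleotide supply are among the p53 targets named above. All 3 had negative log2 fold changes, against 60.8% of all genes. *Polk*, which encodes DNA polymerase kappa, an enzyme that copies past bulky adducts, and lies on chromosome 13 from 96480690 to 96542579 in GRCm38, had the largest difference of the 51 genes. It was at 5.70, 8.71 and 4.57 TPM in *Trp53fl/fl* tumors and at 3.98, 3.58 and 2.96 TPM in *VP* tumors. The genotypes did not overlap, and the *Trp53fl/fl* tumors spread more widely than the *VP* tumors, with means of 6.33 ± 2.14 and 3.51 ± 0.514 TPM (SD, n = 3 each). This gave a log2 fold change of -0.67 (SE 0.23, 95% interval -1.22 to -0.12, limma adjusted p = 0.341), and it ran from -0.85 to -0.45 with each tumor left out in turn. *Rrm2b*, the p53-inducible subunit of ribonucleotide reductase, was at 5.08, 6.09 and 3.04 TPM against 3.70, 3.05 and 3.52 TPM. *Trp53fl/fl* replicate 3 was as low as the lowest *VP* tumor, and the log2 fold change was -0.34 (SE 0.23, 95% interval -0.89 to 0.21, limma adjusted p = 0.560). It was -0.17 without *Trp53fl/fl* replicate 2 and -0.57 without *Trp53fl/fl* replicate 3. *Polh*, whose polymerase eta passes pyrimidine dimers, was at 7.09, 6.65 and 7.27 TPM against 6.32, 6.25 and 6.32 TPM. All *VP* tumors lay below the others, by a small margin, at a log2 fold change of -0.13 (SE 0.13, limma adjusted p = 0.672). Over the 5 p53 targets, 4 log2 fold changes were negative, with a median of -0.13, the same as over all repair genes.

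The genes that reverse alkylation directly, of which 2 were tested, were the only group with no negative log2 fold change. Over all genes 60.8% were negative. *Alkbh2* (chromosome 5 from 114123926 to 114128218), which encodes a dioxygenase that removes methyl groups from adenine and cytosine in double-stranded DNA, was at 9.67, 10.15 and 11.14 TPM in *Trp53fl/fl* tumors and at 12.26, 14.19 and 16.25 TPM in *VP* tumors. Every *VP* tumor was above every *Trp53fl/fl* tumor, and the mean was 37.9% higher (10.3 ± 0.750 against 14.2 ± 2.0 TPM, SD, n = 3 each). The log2 fold change was 0.42 (SE 0.14, 95% interval 0.08 to 0.76, limma adjusted p = 0.341), between 0.33 and 0.52 with a tumor left out. *Alkbh3*, which prefers single-stranded DNA and RNA, was at 22.42, 21.59 and 20.83 TPM against 29.21, 25.16 and 19.53 TPM. The *VP* tumors lay on both sides of the narrow *Trp53fl/fl* range, and the log2 fold change was 0.16 (SE 0.16, 95% interval -0.21 to 0.54, limma adjusted p = 0.674). It was 0.04 without *VP* replicate 1, 0.31 without *VP* replicate 3 and 0.01 with epithelial centring. *Mgmt*, the methyltransferase that repairs methylated guanine in a single step, stayed under 1 TPM in every tumor and was therefore not tested. It was at 0.97, 0.48 and 0.75 TPM in *Trp53fl/fl* tumors and at 0.72, 0.87 and 0.70 TPM in *VP* tumors. The groups overlapped, with means of 0.733 ± 0.245 and 0.763 ± 0.0929 TPM (SD, n = 3 each). The sum of the 3 genes was 32.22 to 33.06 TPM in *Trp53fl/fl* tumors and 36.48 to 42.19 TPM in *VP* tumors.

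In base excision and single-strand break repair, 7 of 8 log2 fold changes were negative, against 60.8% of all genes. The median was -0.04, and *Parp1* stood apart from the rest of the group. *Parp1* (chromosome 1 from 180568924 to 180601254) encodes the polymerase that senses strand breaks and marks them with poly(ADP-ribose). It was at 53.97, 60.04 and 60.54 TPM in *Trp53fl/fl* tumors and at 39.47, 45.29 and 47.22 TPM in *VP* tumors. All *VP* tumors lay below all *Trp53fl/fl* tumors, with means of 58.2 ± 3.66 and 44.0 ± 4.03 TPM (SD, n = 3 each), a difference of -24.4%. The log2 fold change was -0.40 (SE 0.11, 95% interval -0.67 to -0.13, limma adjusted p = 0.302), and -0.45 to -0.32 with a tumor left out. *Xrcc1*, the scaffold that PARP1 recruits, had a log2 fold change of -0.08, and *Lig3*, the ligase bound to it, had one of -0.05. The glycosylases *Mpg* (-0.01), *Ogg1* (-0.13) and *Ung* (0.16), which remove alkylated, oxidised and uracil bases, overlapped between genotypes, as did *Apex1* (-0.02) and *Lig1* (-0.01). For *Mpg*, which starts the repair of methylated purines, the 95% interval ran from -0.37 to 0.35.

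Mismatch repair held the repair gene with the smallest p. *Msh3* (chromosome 13 from 92211872 to 92355003), whose protein helps to recognise insertion and deletion loops, was at 10.58, 9.39 and 10.25 TPM in *Trp53fl/fl* tumors and at 7.38, 7.16 and 6.93 TPM in *VP* tumors. The genotypes were well separated and each was narrow, with means of 10.1 ± 0.614 and 7.16 ± 0.225 TPM (SD, n = 3 each). For *Msh3* the log2 fold change was -0.44 (SE 0.13, 95% interval -0.73 to -0.14, limma adjusted p = 0.302) and stayed between -0.59 and -0.35 under all 15 alternative settings. *Msh6*, which acts on base mismatches and was the most abundant of the group at 18.4 TPM, had a log2 fold change of -0.10. *Exo1*, the exonuclease, and *Pms2*, the endonuclease subunit with the lowest level, had values of -0.09 and 0.11, and the groups of all 3 overlapped.

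**Figure D3:**
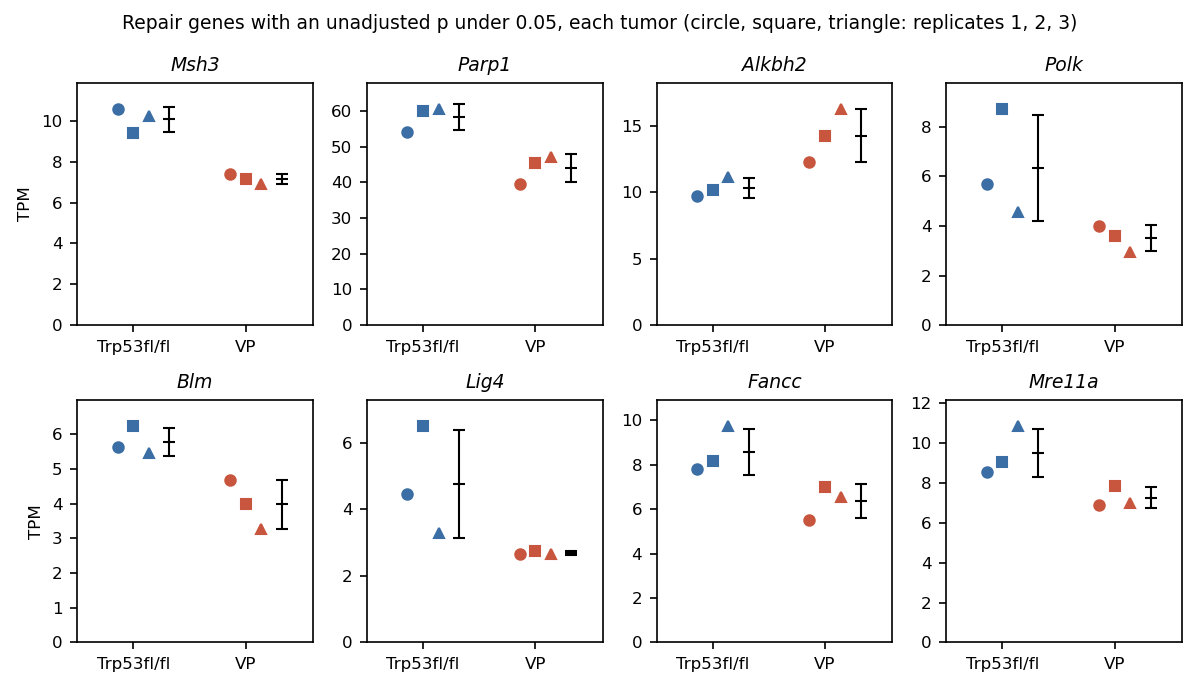
TPM in each tumor (circle, square and triangle for replicates 1, 2 and 3) of the 8 repair genes with an unadjusted p under 0.05, with the mean and SD of each genotype beside the points. The genotypes do not overlap in any panel, and *Alkbh2* is the single gene with higher values in *VP* tumors.

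Of the 11 genes of homologous recombination and the Fanconi anemia pathway, 9 had a negative log2 fold change (median -0.15, against 60.8% negative over all genes) and 3 had every *VP* tumor below every *Trp53fl/fl* tumor, against 13.3% of all genes. *Blm*, the helicase that dissolves recombination intermediates, was at 5.63, 6.23 and 5.45 TPM in *Trp53fl/fl* tumors and at 4.69, 3.99 and 3.28 TPM in *VP* tumors (log2 fold change -0.45, SE 0.17, limma adjusted p = 0.358). All *VP* tumors were lower, with *VP* replicate 3 the lowest. *Fancc*, a member of the Fanconi core complex that ubiquitinates FANCD2 and FANCI at crosslinks, was at 7.80, 8.16 and 9.74 TPM against 5.53, 7.01 and 6.55 TPM (log2 fold change -0.38, SE 0.15, limma adjusted p = 0.387). *Rad52*, which anneals single strands, was at 10.50, 9.91 and 9.2 TPM against 6.61, 7.59 and 8.69 TPM (log2 fold change -0.34, SE 0.15, limma adjusted p = 0.403). Neither gene overlapped between genotypes, although *Rad52* in *VP* replicate 3 came close to the lowest *Trp53fl/fl* tumor. The most abundant gene of the group, *Fanca*, had a log2 fold change of -0.15, and the least abundant, the recombination gene *Rad51c*, had one of 0.16. *Brca1* (-0.13), *Brca2* (-0.19), *Palb2* (0.08), *Fancd2* (-0.19), *Fanci* (-0.15) and the helicase *Wrn* (-0.08) overlapped between genotypes. Of these, *Brca1*, *Brca2*, *Palb2*, *Fancd2* and *Fanci* had their lowest value in *VP* replicate 3.

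Both groups that act first on double-strand breaks, of 3 and 4 genes, had only negative log2 fold changes, against 60.8% negative over all genes. In the MRN complex, which tethers and trims broken ends, *Mre11a* encodes the nuclease and was at 8.56, 9.07 and 10.86 TPM in *Trp53fl/fl* tumors and at 6.90, 7.87 and 7.01 TPM in *VP* tumors. There was no overlap, and the log2 fold change was -0.34 (SE 0.14, limma adjusted p = 0.398). Its partners *Rad50* and *Nbn* had values of -0.12 and -0.24 and overlapped. In end joining, *Lig4*, which seals the ends, was at 4.47, 6.5 and 3.30 TPM in *Trp53fl/fl* tumors and at 2.66, 2.76 and 2.66 TPM in *VP* tumors. The *VP* tumors were nearly equal and all lower, whereas *Trp53fl/fl* replicate 2 lay far above the other *Trp53fl/fl* tumors, with means of 4.76 ± 1.62 and 2.69 ± 0.0577 TPM (SD, n = 3 each). The difference on the log2 scale was -0.60 (SE 0.23, limma adjusted p = 0.362), and -0.79 to -0.39 over the fits that left out a tumor. *Xrcc5*, the Ku80 subunit that binds ends, was at 23.74, 22.43 and 24.33 TPM against 19.08, 19.56 and 21.89 TPM (log2 fold change -0.21, SE 0.11, limma adjusted p = 0.468). Its groups did not overlap, while those of *Xrcc6*, which encodes the Ku70 subunit and was the most abundant of the group, did (log2 fold change -0.05). *Prkdc*, the kinase that Ku recruits, was lowest in level and had a log2 fold change of -0.21.

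Summed over the 52 genes, *Trp53fl/fl* tumors held 908, 853 and 971 TPM and *VP* tumors 813, 869 and 841 TPM, with *VP* replicate 2 above *Trp53fl/fl* replicate 2. Single tumors stood out in the counts. *Trp53fl/fl* replicate 3 had the highest value of the 6 tumors for 19 of the 51 genes (37.3%), against 20% of all genes tested, and *VP* replicate 3 had the lowest for 19 (37.3%), against 19.1%. The same 2 tumors were at the ends for cell division. The sum of 20 cell cycle markers was 976, 830 and 1184 TPM in *Trp53fl/fl* tumors and 909, 983 and 774 TPM in *VP* tumors, and 18 of the 20 had a negative log2 fold change (median -0.12), 2 of them, *Ccna2* and *Mki67*, lower at an unadjusted p under 0.05. The shares over the whole table were 60.8% negative and 8.0% lower at that p. The median of the cell cycle markers rested on single tumors. It was -0.26 without *Trp53fl/fl* replicate 2, -0.02 without *Trp53fl/fl* replicate 3, and -0.21, -0.19 and -0.01 without *VP* replicates 1, 2 and 3. The part of cell division in the levels of the repair genes was not tested.

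**Figure D4:**
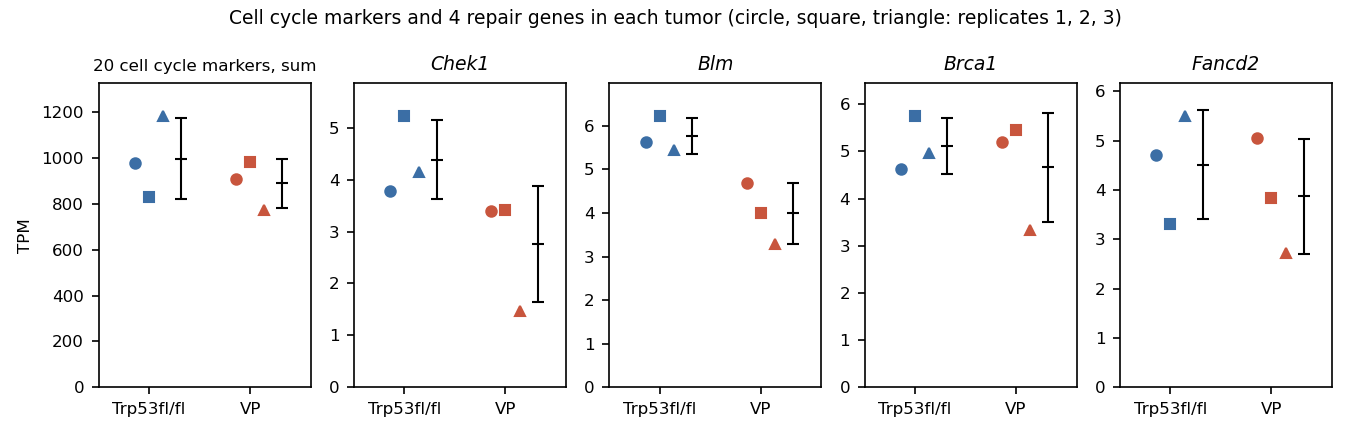
Summed TPM of 20 cell cycle markers (left) and TPM of *Chek1*, *Blm*, *Brca1* and *Fancd2*, 4 genes known to follow the cell cycle, in each tumor, with the mean and SD of each genotype. *VP* replicate 3 (triangle) is the lowest *VP* tumor in every panel, and *Trp53fl/fl* replicate 3 is the highest in the sum and for *Fancd2*.

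The plot of cell cycle markers shows that the order of the *Trp53fl/fl* tumors in the marker sum was kept by *Fancd2* but not by *Chek1*, *Blm* or *Brca1*, which were highest in *Trp53fl/fl* replicate 2. Markers of other cell types also differed between the tumors. All 10 neutrophil markers had a positive log2 fold change (median 0.77), and their sum was 416 to 747 TPM in *Trp53fl/fl* tumors and 1193 to 2029 TPM in *VP* tumors. The sum of 8 macrophage markers was 466 to 503 TPM against 526 to 666 TPM, that of 8 fibroblast markers 877 to 995 TPM against 747 to 1090 TPM, that of 8 lymphocyte markers 33.5 to 52.7 TPM against 25.9 to 56.6 TPM, and that of 6 smooth muscle markers 488 to 809 TPM against 415 to 1347 TPM. No marker was at 0 in any tumor, and none passed the limma adjustment. Their part in the differences of the repair genes was not tested.

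Outside the 52 genes, 78 other genes of the same pathways were examined, of which 77 passed the filter. None passed the limma adjustment, 6 were lower at an unadjusted p under 0.05 (7.79%, against 8.0% of all genes) and none was higher. Log2 fold changes were negative for 60 of 77 (77.9%, against 60.8% of all genes), with a median over the 77 of -0.13. The smallest p belonged to *Tdp2*, which removes topoisomerase II from DNA ends, at 16.78, 19.96 and 14.88 TPM in *Trp53fl/fl* tumors and 10.96, 12 and 8.82 TPM in *VP* tumors (log2 fold change -0.65, SE 0.17, limma adjusted p = 0.278). *Topbp1*, the activator of ATR, was at 34.99, 32.68 and 27.46 TPM against 21.52, 24.08 and 19.99 TPM (log2 fold change -0.51, SE 0.14, limma adjusted p = 0.279). *Rev3l*, the catalytic subunit of DNA polymerase zeta, was at 16.16, 16.13 and 11.38 TPM against 10.62, 7.47 and 6.55 TPM (log2 fold change -0.76, SE 0.21, limma adjusted p = 0.301). None of the 3, which had the smallest p of the 77, overlapped between genotypes. Every *VP* tumor lay below every *Trp53fl/fl* tumor for 9 of the 77 (11.7%), against 13.3% of all genes. *Rad17*, the loader of the checkpoint clamp, and *Mus81*, a nuclease for branched DNA, came next, with differences of -0.52 and -0.40 on the log2 scale (limma adjusted p = 0.341 and 0.342).

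Promoters were compared because members that differed in the same direction could share sequence upstream of their starts. RefSeq promoter windows of GRCm38.p6 were found for 42 of the 52 genes, in 48 windows, and the 250 bases before each start were searched on both strands. A p53 half-site, the 10-base motif of which the full response element has a pair, was present in 4.17% of the windows of repair genes (*Fanca* and *Polk*) and in 7.13% of all 32851 windows, and a pair of half-sites in none of the 48 and in 0.0639% of all. The p53 targets *Ddb2*, *Xpc* and *Rrm2b* had no window and were not searched. The E2F motif TTTGGCGC was in 1 of the 48 windows (2.08%, *Msh3*) against 0.417% of all. The E2F motif TTTCCCGC was in 4 (8.33%, *Brca2*, *Chek2*, *Mdc1* and *Xrcc6*) against 0.895%, and CCAAT in 39.6% against 33.8%. Of the genes with an E2F motif, only *Msh3* was at an unadjusted limma p under 0.05, and *Chek2* had a positive log2 fold change. Such matches are descriptions of letters and not of binding. The windows of *Polk*, *Parp1* and *Alkbh2* are shown for the gene with the largest difference, the most abundant lower gene and the single higher gene at an unadjusted p under 0.05, each from 5′ to 3′ on the strand of the gene. That of *Polk* lies before an internal start at chr13:96519188-96519437 on the minus strand, with the half-site in capitals. Those of *Parp1* (chr1:180568641-180568890, plus strand) and *Alkbh2* (chr5:114128219-114128468, minus strand) hold none of the motifs searched.
Polk: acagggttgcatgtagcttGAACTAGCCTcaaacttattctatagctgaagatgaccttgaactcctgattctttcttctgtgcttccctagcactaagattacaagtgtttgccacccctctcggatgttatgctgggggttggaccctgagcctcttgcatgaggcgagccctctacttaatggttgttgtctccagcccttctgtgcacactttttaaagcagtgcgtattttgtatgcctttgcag
Parp1: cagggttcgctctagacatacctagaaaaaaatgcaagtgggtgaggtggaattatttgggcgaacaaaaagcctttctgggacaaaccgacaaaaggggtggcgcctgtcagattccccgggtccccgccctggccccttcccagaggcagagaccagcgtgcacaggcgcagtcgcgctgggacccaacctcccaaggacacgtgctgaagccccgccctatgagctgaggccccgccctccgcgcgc
Alkbh2: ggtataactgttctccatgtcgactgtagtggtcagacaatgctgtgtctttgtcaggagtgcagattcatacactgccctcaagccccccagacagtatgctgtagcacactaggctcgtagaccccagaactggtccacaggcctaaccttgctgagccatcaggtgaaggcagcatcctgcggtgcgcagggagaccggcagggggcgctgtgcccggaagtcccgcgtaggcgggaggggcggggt
The *Parp1* window is 61.6% G or C with 16 CpG dinucleotides, the *Alkbh2* window 60% with 11, and the *Polk* window 46.8% with 3. The window before the main start of *Polk* overlaps exons of *Col4a3bp*, whose start lies 39 bp away on the opposite strand, and it held no half-site.

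Neighbours that share a start region give a further comparison. *Col4a3bp*, a ceramide transporter gene head to head with *Polk*, was at 32.47, 33.20 and 21.11 TPM in *Trp53fl/fl* tumors and 17.07, 14.64 and 20.01 TPM in *VP* tumors (log2 fold change -0.70), without overlap. *Npat*, a histone gene regulator 307 bp from *Atm*, was at 6.77, 8.37 and 5.85 TPM against 5.25, 4.89 and 4.52 TPM (log2 fold change -0.43), without overlap, whereas *Atm* overlapped. *Xpo5*, *Osgep* and *Purg*, the neighbours of *Polh*, *Apex1* and *Wrn*, were also lower in every *VP* tumor without overlap. *Emc3*, the neighbour of *Fancd2*, was higher in every *VP* tumor without overlap. Over all genes tested, 13.3% were lower in *VP* tumors without overlap and 6.03% higher. For *Lig4* the neighbour *Abhd13*, 21 bp away, had a log2 fold change of -0.27, and for *Prkdc* the helicase gene *Mcm4*, 466 bp away, had one of -0.20. *Emc3*, 30 bp from *Fancd2*, differed in sign from it (0.07 against -0.19), as did *Tex14* from *Rad51c* (-0.10 against 0.16). Both genes of a pair were positive for *Dctn5* (0.01) with *Palb2*, *Aimp2* (0.06) with *Pms2* and *Hscb* (0.08) with *Chek2*. Both were negative for *Nbr1* (-0.16) with *Brca1*, *Lsm3* (-0.12) with *Xpc*, *Xpo5* (-0.15) with *Polh*, *Osgep* (-0.15) with *Apex1* and *Purg* (-0.48) with *Wrn*. *Pinlyp*, beside *Xrcc1*, was not tested. *Alkbh2* shares 329 exonic bases with *Usp30* (log2 fold change 0.16), *Fancc* shares 185 with *2010111I01Rik* (-0.31), which was more abundant at 155 TPM, and *Mre11a* shares 154 with *Ankrd49* (-0.66), all on opposite strands. No source states whether counting used the strand, so reads of the shared bases cannot be told apart and the values of these genes are uncertain to that extent. In all, 27 of the 52 genes share exonic bases with another gene in GENCODE M21.

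Transcript composition moved with the differences. Across the 51 repair genes, which share the same 6 libraries and are not independent replicates, the Spearman correlation of the log2 fold change was 0.49 with the GC content of the transcript and -0.32 with its length, compared with 0.31 and -0.26 across 13315 protein-coding genes. Of the 26 longer transcripts, 24 had a negative log2 fold change (median -0.17), and of the 25 shorter ones, 18 (median -0.07). *Trp53fl/fl* replicate 2 carried much of the relation with GC content. The difference of that tumor from the other *Trp53fl/fl* tumors had a correlation of -0.58 with GC content across the repair genes and of -0.52 across all coding genes, and without that tumor the correlation of the log2 fold change with GC content was 0.16 and 0.08, and with length -0.14 and -0.18. That tumor had the highest value for 16 of the 51 repair genes (31.4%), against 27.1% of all genes tested. *Polk*, *Lig4*, *Atr* and *Rrm2b* were among the 16. The part of library composition in these differences was not tested.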

How the data were processed

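RNA from 6 colorectal tumors was sequenced from both ends after poly(A) selection, and the authors deposited TPM per gene, without pooling. The submitters' processing notes list HISAT2, StringTie and mm9, without role or version. Strand use and annotation are not given in the sources used here. TPM depend on all other genes of a tumor and keep no depth, so no count test, counting interval or limit of detection was possible.

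From the deposited TPM, log2(TPM + 1) was taken for genes that reached 1 TPM in 3 or more tumors and compared between genotypes by limma 3.58.1, run in R 4.3.3 (empirical Bayes with trend, Benjamini-Hochberg adjustment over 15117 genes), checked on simulated data. The labels do not say whether each tumor came from a separate mouse, so p-values measure only the spread between these tumors. The 52 genes and all lists were chosen with earlier results of these data known, so no list was tested. Genes given in full were those at an adjusted or unadjusted p under 0.05, those without overlap, p53 targets, alkylation reversal genes and *Trp53*, with the 5 other repair genes of smallest p and the most and least abundant gene of a role. Genomic positions came from GENCODE M21 (GRCm38) by gene ID and promoters from RefSeq (GRCm38.p6) by symbol, computed with pandas 2.3.3, numpy 2.4.6 and scipy 1.17.1. Alternatives were rescaling by median of ratios, centring on 12 epithelial markers, quantile normalization, a mean TPM of 5 or more, no filter, a pseudocount of 0.1, no trend, array quality weights, the replicate number as a block and leaving out each tumor. Some genes are not reported here.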

Additional observations from a re-analysis of the deposited data

How the results depend on the processing

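No repair gene had a limma adjusted p under 0.05 in any of the 15 alternatives, against 7 lower and 1 higher at an unadjusted p under 0.05 with the settings of the report. The 7 became 3 without a filter (5.8%, against 5.6% of all genes) and 2 with a mean of at least 5 TPM (5.6%, against 8.8%). That mean kept 36 of the 51 genes and left out *Polk*, *Blm*, *Lig4*, *Chek1* and *Rrm2b* among others. *Fancc* and *Mre11a* were kept, at an unadjusted limma p of 0.055 and 0.056. The 7 became 4 with median-of-ratios rescaling (7.8%, against 4.6%), 13 with epithelial centring (25.5%, against 19.2%) and 2 to 8 in leave-one-out fits. The 1 became 0 with epithelial centring, 2 with array quality weights and 0 to 2 in leave-one-out fits. The median of the repair genes, -0.13, was -0.055 with median-of-ratios rescaling, -0.048 with quantile normalization, -0.28 with epithelial centring and -0.16 to -0.09 with a tumor left out, while the median of all genes moved from -0.07 to 0.00, -0.02 and -0.22 under these scalings. Of the 51 genes, 34, 33 and 46 were then negative. The 25 genes called over the whole table became 7 without a filter, 323 with array quality weights, whose estimation stopped before it converged, and 6 to 28 with a tumor left out, and 48% of them were higher in *VP* tumors against 60% with median-of-ratios rescaling. Array quality weights called 2 other repair genes, *Topbp1* and *Rev3l* (limma adjusted p = 0.0460 and 0.0469). *Trp53* kept its log2 fold change of -1.87 without a filter (limma adjusted p = 0.104), and leave-one-out fits gave -2.02 to -1.74 (up to 0.0986). *Ddb2* changed sign with epithelial centring (-0.14) and with a tumor left out (-0.15 to 0.10), and *Xpc* with median-of-ratios rescaling (0.0054), quantile normalization (0.023), array quality weights (0.029) and leave-one-out fits (-0.14 to 0.017). Deviations of same-numbered tumors from their genotype mean had correlations of 0.0185, -0.052 and 0.0175. The labels do not say whether the numbers pair tumors, and 3 tumors per genotype are too few for these correlations to decide it. With the replicate number as a block, 10 genes were called (70% higher), 4 repair genes were lower at an unadjusted p under 0.05, and *Trp53* was at -1.87 (limma adjusted p = 0.0883). The cause of these changes was not tested beyond fewer genes or tumors entering a fit. With 3 tumors per genotype and unknown depth, differences of the size seen here were near the precision of the fit.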
